A study of Mus musculus with 8 samples.

Results

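The collagen genes are the 44 rows of the deposited FPKM table whose symbol is Col, a type number, the letter a and a chain number, of 23847 rows in all. Each symbol occurred in 1 row, and none was a joined locus. They were measured in poly(A)-selected RNA from heart ventricles of C57BL/6 mice at postnatal day 21, in 4 libraries from Med1cKO mice, which carry a cardiac knockout of Med1, and in 4 libraries from Med1fl/fl mice, in which Med1 is flanked by loxP sites and not deleted (WT). Med1 encodes a subunit of Mediator, the complex that passes signals from transcription factors to RNA polymerase II. The promoter that drove the deletion is not given in the sources used here, and a cardiac knockout leaves Med1 in the cells where that promoter is silent. FPKM are fragments per kilobase of transcript after scaling by library size. How many fragments each library held is unknown, so no counting interval can be given. Nothing in the labels says that each library came from 1 animal, and p-values then measure only the spread between these libraries, which may be technical.

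Collagens are secreted proteins of 3 chains wound into a triple helix, which needs glycine at regular places, as Gly-X-Y triplets of residues. Fibrillar collagens form the tension-bearing fibres of the heart's interstitium, collagen IV forms the sheet of the basement membrane around cardiomyocytes and capillaries, and collagen VIII forms short-chain networks in vessels and remodelling tissue. FACIT collagens (fibril-associated collagens with interrupted triple helices) bind to the surface of fibrils, collagen VI forms beaded microfibrils between basement membrane and fibrils, and multiplexins are basement membrane collagens that carry sugar chains. In the heart most fibrillar collagen is made by fibroblasts, while endothelial cells and cardiomyocytes also make collagen IV.

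Collagen chains share the Gly-X-Y repeat, and the stretches printed here show what it looks like in the coding sequence and how it breaks off. In the longest GENCODE M21 coding sequence of each gene, the longest uninterrupted run of Gly-X-Y triplets was 216 to 344 triplets in the 11 fibrillar chains, 39 to 66 in the 6 basement membrane chains, 59 to 60 in the 3 network chains, 32 to 113 in the 9 FACIT chains, 37 to 87 in the 6 microfibril chains and 30 in both multiplexins. The fibrillar chains stood apart in this measure, while the ranges of the basement membrane, network, FACIT and microfibril chains overlapped. Fibrillar chains had 2 to 5 runs of at least 3 triplets, basement membrane chains 23 to 27 and FACIT chains 2 to 23. The first 90 bases of the longest run are given for 4 chains, with codons counted from 1 at the start codon. Capitals mark the glycine codon that opens each triplet, and any other glycine codon is in lower case. The run began at codon 168 of Col1a1 and had 338 triplets, at codon 355 of Col8a1 with 60 triplets, at codon 2805 of Col12a1 with 32 triplets and at codon 256 of Col6a1 with 87 triplets.
Col1a1: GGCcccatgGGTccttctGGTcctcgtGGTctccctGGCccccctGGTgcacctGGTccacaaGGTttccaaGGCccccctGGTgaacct
Col8a1: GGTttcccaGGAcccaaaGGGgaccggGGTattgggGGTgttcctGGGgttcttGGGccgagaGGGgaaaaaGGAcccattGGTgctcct
Col12a1: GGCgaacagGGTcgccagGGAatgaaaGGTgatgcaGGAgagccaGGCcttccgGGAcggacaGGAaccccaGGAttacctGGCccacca
Col6a1: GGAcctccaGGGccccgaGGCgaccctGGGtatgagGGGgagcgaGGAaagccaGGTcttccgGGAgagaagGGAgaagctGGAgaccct
The next 90 bases, from codon 148 of Col4a1, show the end of its longest run (40 triplets), the break in the repeat that follows it, and the start of the next run. Capitals again mark the glycine codons that open the triplets of runs.
Col4a1: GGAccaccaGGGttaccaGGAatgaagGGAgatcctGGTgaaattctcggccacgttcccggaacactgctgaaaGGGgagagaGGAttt

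Libraries held a total of 481719 to 502629 FPKM in the knockout and of 507484 to 536174 FPKM in WT, and 11757 to 12273 genes in the knockout and 11526 to 11734 genes in WT reached 1 FPKM. Med1 had 7.80 to 9.15 FPKM in the knockout libraries and 10.6 to 16.8 FPKM in WT, without overlap. The genes listed as ventricular cardiomyocyte markers were Myl2, Myl3, Myh6, Tnni3, Tnnt2, Actc1 and Irx4, and all were present in every library. They summed to 16730 to 26410 FPKM in the knockout and 49440 to 55430 FPKM in WT. Knockout 4 stood apart from the other knockout libraries in markers of tissues that border the ventricle. Its atrial marker Myl7 was at 726 FPKM, against 2.50 to 61.6 in the other knockout libraries and at most 0.68 in WT, and its 6 cartilage and valve markers summed to 13.6 FPKM, against 2.10 to 3.72 in the other knockout libraries and 0.757 to 0.851 in WT. Values without this library are given for several results that it moved, and all other values and counts include it.

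Collagen transcripts were more abundant in the knockout in most classes. Of the 44 genes, 26 had a mean of at least 1 FPKM over the 8 libraries and were tested, and 22 of these rose in the knockout, 1 fell (Col6a6) and 3 were not called (Col5a3, Col6a3 and Col15a1), by limma on log2(FPKM + 1) at a Benjamini-Hochberg adjusted p under 0.05 over 11974 genes. Across all genes tested, 44.9% were called higher and 16.4% lower, so the 22 of 26 stand beside a background in which higher calls were already common. The 4 knockout libraries lay above all 4 WT libraries for 22 collagens, as for 41.7% of all genes, and 18 of the 26 had an adjusted p under 0.05 together with a log2 change of at least 1, as had 9.02% of all genes. The median log2 change was 1.12 over the 26 collagens and 0.25 over all genes tested. After median-of-ratios rescaling of the libraries, which brought the median of all genes to 0.01, the collagens' median was 0.87, and again 22 were higher and 1 lower, beside 26.9% of all genes called higher. Col4a6, Col8a2, Col9a2 and Col12a1 had a mean under 1 FPKM in WT and passed the minimum only through the knockout, so their calls follow in part from the filter. In bulk tissue, more cells of a type and more RNA per cell cannot be told apart for any of these changes.

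**Figure D1:**
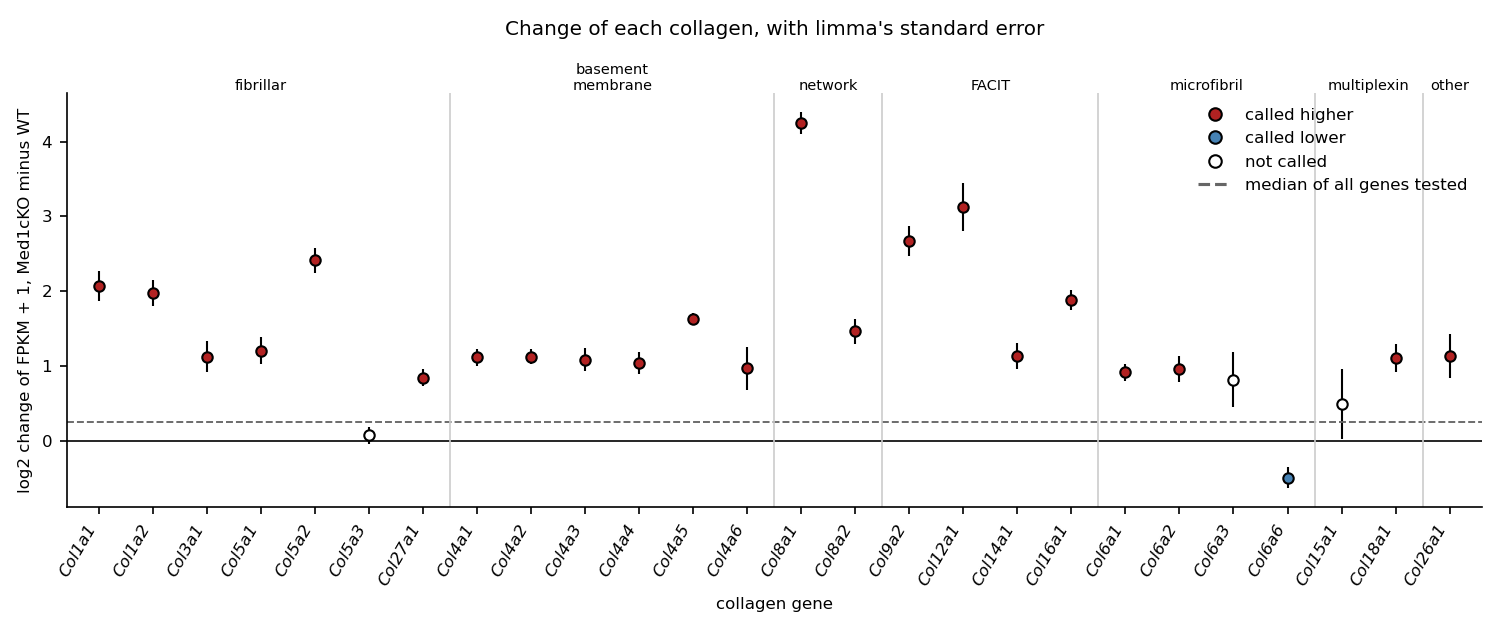
Log2 change of FPKM + 1, Med1cKO minus WT, for the 26 collagens with a mean of at least 1 FPKM, grouped by class, with limma's standard error as bars and the median of all genes tested as a dashed line. Col8a1 stands at 4.25, Col12a1 at 3.13 and Col9a2 at 2.67, Col5a3 lies near 0, and only Col6a6 lies below it, at -0.50.

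Fibrillar collagens rose by 0.84 to 2.41 on the log2 scale in 6 of the 7 members tested, with Col5a2 and the 2 chains of collagen I in front. Col1a1 encodes the main chain of collagen I, the bulk of the heart's stiff fibrils, and had 178, 152, 164 and 289 FPKM in the knockout libraries, against 47.6, 35.0, 44.9 and 51.3 FPKM in WT. Its lowest knockout library stood far above its highest WT library, and the mean was 4.38-fold higher. Col1a2, the partner chain of collagen I, had 259, 182, 224 and 317 FPKM in the knockout libraries, against 63.1, 48.0, 66.4 and 66.8 FPKM in WT. The 2 collagen I chains thus followed each other library by library, both with their highest value in knockout 4 and their lowest in knockout 2. Log2 changes were 2.07 ± 0.20 (SE, adjusted p = 2.76e-05) for Col1a1 and 1.97 ± 0.17 (SE, adjusted p = 1.6e-05) for Col1a2. Col3a1, whose product forms thinner fibrils together with collagen I, had 346, 299, 305 and 604 FPKM in the knockout libraries, against 181, 149, 173 and 182 FPKM in WT. It was the most abundant fibrillar chain in both groups and rose by 1.12 ± 0.21 (SE, adjusted p = 0.00123), with knockout 4 well above the other knockout libraries. Without that library the log2 change was 0.89 (adjusted p = 0.000106).

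The collagen V chains, which start and limit fibrils of collagen I, moved unequally. Col5a1 had 37.9, 46.5, 48.9 and 69.8 FPKM in the knockout libraries, against 22.2, 16.7, 22.3 and 23.1 FPKM in WT, a log2 change of 1.21 ± 0.18 (SE, adjusted p = 0.000301). Col5a2 had 95.9, 62.2, 93.5 and 112 FPKM in the knockout libraries, against 17.0, 14.1, 15.2 and 17.6 FPKM in WT, a log2 change of 2.41 ± 0.16 (SE, adjusted p = 4.21e-06). Every knockout library was above every WT library for both chains, and Col5a2 had the largest change of the 7 fibrillar chains tested, 5.69-fold in mean FPKM. Col5a3, a less common chain of collagen V, had 8.66, 10.4, 9.29 and 9.19 FPKM in the knockout libraries, against 10.9, 7.38, 8.30 and 9.20 FPKM in WT. Its groups overlapped and its log2 change was 0.07 ± 0.11 (SE, adjusted p = 0.593), which turned to -0.18 after rescaling, so no direction is given for it. Col27a1, a fibrillar collagen known best from cartilage, was low in both groups, with 3.15, 3.01, 2.38 and 3.66 FPKM in the knockout libraries, against 1.35, 1.23, 1.20 and 1.19 FPKM in WT, and its groups did not overlap (log2 change 0.84 ± 0.12 (SE, adjusted p = 0.00022)).

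**Figure D2:**
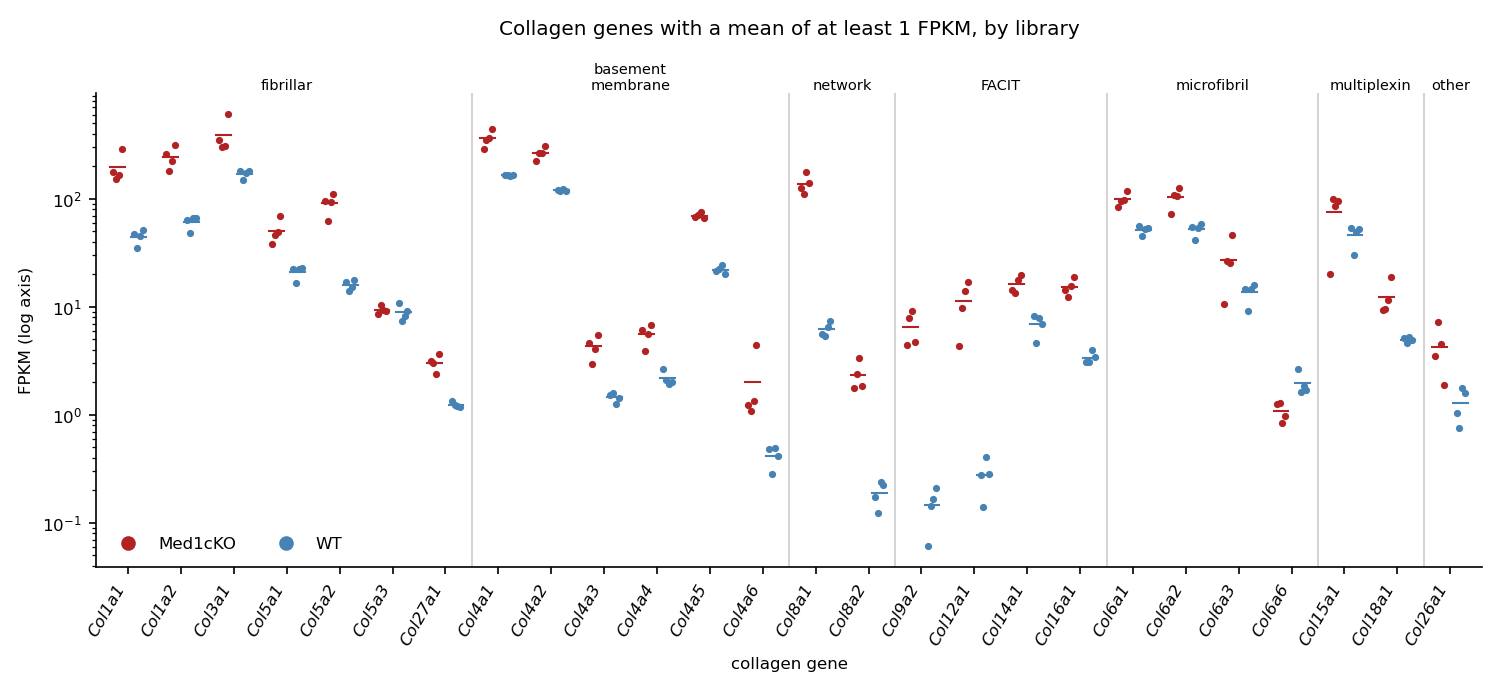
FPKM of each collagen with a mean of at least 1 FPKM in the 4 Med1cKO and 4 WT libraries, on a log axis, with a bar at each group's mean. Col3a1 and Col4a1 were the most abundant collagens in both groups, and Col6a3, Col15a1 and Col5a3 are the 3 genes whose groups overlap.

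All 6 basement membrane chains rose, by 0.97 to 1.62 on the log2 scale, though Col4a6 passed the minimum only through the knockout. Col4a1 and Col4a2 encode the 2 chains of the collagen IV found in nearly every basement membrane. Col4a1 had 291, 353, 365 and 441 FPKM in the knockout libraries, against 164, 165, 164 and 167 FPKM in WT. The WT libraries differed little from each other, and among the knockout libraries knockout 1 was lowest and knockout 4 highest. Col4a2 had 223, 266, 264 and 308 FPKM in the knockout libraries, against 119, 119, 124 and 119 FPKM in WT, with the same libraries lowest and highest in the knockout. Log2 changes were 1.11 ± 0.11 (SE, adjusted p = 3.97e-05) for Col4a1 and 1.13 ± 0.10 (SE, adjusted p = 1.45e-05) for Col4a2. Col4a3, Col4a4 and Col4a5 encode the chains of the collagen IV best known from the kidney's filter. Col4a3 had 4.61, 2.96, 4.07 and 5.54 FPKM in the knockout libraries, against 1.53, 1.60, 1.27 and 1.43 FPKM in WT, and Col4a4 had 6.16, 3.93, 5.54 and 6.78 FPKM in the knockout libraries, against 2.64, 2.10, 1.94 and 2.02 FPKM in WT. Knockout 2 was the lowest and knockout 4 the highest of the knockout libraries for both chains, above all WT libraries, with log2 changes of 1.09 ± 0.15 (SE, adjusted p = 0.000214) for Col4a3 and 1.04 ± 0.15 (SE, adjusted p = 0.000247) for Col4a4. Col4a5 was far more abundant than its partner chains, with 68.0, 70.5, 74.7 and 66.7 FPKM in the knockout libraries, against 21.6, 22.3, 24.3 and 19.9 FPKM in WT. It had the largest log2 change of FPKM + 1 in the class, 1.62 ± 0.08 (SE, adjusted p = 8.1e-07). Col4a6 was further above WT by mean FPKM, 4.83-fold against 3.17-fold, but its knockout mean was raised by knockout 4 (4.43 FPKM). For Col4a5 the knockout libraries differed little among themselves, and knockout 4 was the lowest of them. Col4a6, which pairs with Col4a5 in smooth muscle basement membranes, had 1.23, 1.09, 1.33 and 4.43 FPKM in the knockout libraries, against 0.478, 0.284, 0.491 and 0.418 FPKM in WT. Knockout 4 stood apart, the log2 change of 0.97 ± 0.29 (SE, adjusted p = 0.0149) was 0.65 without that library (adjusted p = 0.00232), and it was 1.81 with a pseudocount of 0.1 in place of 1.

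The collagen IV genes lie in 3 head-to-head pairs, in which neighbours are transcribed away from each other from starts that lie close together (mm10, GENCODE M21). Col4a1 lies on chromosome 8 from 11198423 to 11312826 on the minus strand and Col4a2 on chromosome 8 from 11312829 to 11449287 on the plus strand, with 2 bases between them. Whether fragments were counted by strand is not given in the sources used here, so fragments close to the shared start may be divided between the 2 genes. Their ratio was nearly the same in both groups, as given with the other chain ratios. Col4a6 lies on chromosome X from 141165403 to 141474076 and Col4a5 on chromosome X from 141475419 to 141689235, 1342 bases apart, and these neighbours differed in level and in change. Col4a4 lies on chromosome 1 from 82450723 to 82586849 and Col4a3 on chromosome 1 from 82586921 to 82722059, with 71 bases between the starts. These neighbours had log2 changes of 1.04 for Col4a4 and 1.09 for Col4a3, and the 71 bases between them, which no annotated exon overlaps, are printed because both genes start from them (RefSeq, GRCm38.p6, chr1:82586850-82586920, plus strand). They are 69.0% G or C and hold none of the 5 motifs searched on both strands, the TATA box (TATAAA), the CCAAT box (CCAAT), the GC box (GGGCGG), the MCAT motif (CATTCC) and the AP-1 motif (TGANTCA).
Col4a4 to Col4a3: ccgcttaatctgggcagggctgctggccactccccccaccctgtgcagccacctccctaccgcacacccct

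Both network collagens tested rose, though Col8a2 passed the minimum only through the knockout. Col8a1 had the largest log2 change of FPKM + 1 of the 26 collagens. By mean FPKM, Col9a2 (45.0-fold) and Col12a1 (40.6-fold) were further above WT, and their log2 changes with a pseudocount of 0.1 (4.73 and 4.80) were also above that of Col8a1 (4.44). Col8a1, a short-chain collagen of vessel walls and of remodelling tissue, had 125, 111, 177 and 140.1 FPKM in the knockout libraries, against 5.57, 5.42, 6.57 and 7.37 FPKM in WT. No knockout library was below 111 FPKM and no WT library above 7.37, and the mean was 22.2-fold higher (log2 change 4.25 ± 0.15 (SE, adjusted p = 2.24e-07)). Col8a2, the other chain of collagen VIII, was at a much lower level, with 1.76, 2.37, 3.37 and 1.83 FPKM in the knockout libraries, against 0.174, 0.124, 0.238 and 0.223 FPKM in WT. Its libraries did not overlap either, and its log2 change of 1.46 ± 0.16 (SE, adjusted p = 6.49e-05) was 3.04 with a pseudocount of 0.1. Col10a1, a collagen of growth-plate cartilage, was under the minimum. Col8a1 lies on chromosome 16 from 57624256 to 57754737 on the minus strand, and the 250 bases before its start are printed as those of the collagen with the largest log2 change of FPKM + 1 (RefSeq, GRCm38.p6, chr16:57754738-57754987, minus strand, no annotated exon inside). Capitals mark the GC box on either strand, the only one of the 5 motifs found there.
Col8a1: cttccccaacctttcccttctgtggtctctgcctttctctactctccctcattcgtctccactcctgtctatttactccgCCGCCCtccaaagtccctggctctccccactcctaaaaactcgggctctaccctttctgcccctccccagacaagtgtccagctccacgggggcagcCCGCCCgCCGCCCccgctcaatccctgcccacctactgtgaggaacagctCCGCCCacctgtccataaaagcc
RefSeq start windows were matched for 35 of the 44 collagens, in 38 windows of 250 bases before the start. A GC box lay in 22 of these windows and in 32.7% of all 32851 windows of that length, a CCAAT box in 13 and in 33.8%, a TATA box in 5 and in 12.4%, an MCAT motif in 4 and in 12.6%, and an AP-1 motif in 1 and in 6.75%. A match describes the letters of the window only.

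The 4 FACIT collagens past the minimum all rose, by 1.13 to 3.13 on the log2 scale. Of these, Col9a2 and Col12a1 passed the minimum only through the knockout. Col12a1 coats collagen I fibrils in tissue under load and had 4.37, 9.68, 13.9 and 16.9 FPKM in the knockout libraries, against 0.276, 0.141, 0.406 and 0.283 FPKM in WT. It was nearly silent in WT and present in every knockout library, with knockout 1 lowest, and its mean was 40.6-fold higher. The log2 change of 3.13 ± 0.32 (SE, adjusted p = 3.89e-05) was 4.80 with a pseudocount of 0.1, since the added 1 FPKM weighs on low genes. Col14a1, which limits the lateral growth of fibrils, had 14.2, 13.4, 17.5 and 19.5 FPKM in the knockout libraries, against 8.23, 4.64, 7.82 and 6.94 FPKM in WT, a log2 change of 1.13 ± 0.17 (SE, adjusted p = 0.000386). Col16a1, which links fibrils and cells, had 14.3, 12.2, 15.7 and 19.0 FPKM in the knockout libraries, against 3.07, 3.07, 4.01 and 3.40 FPKM in WT, a log2 change of 1.88 ± 0.13 (SE, adjusted p = 4.9e-06). For both, each knockout library was above each WT library, by a wider margin for Col16a1. Col9a2 encodes a chain of collagen IX, the fibril-associated collagen of cartilage, and had 4.47, 7.83, 9.06 and 4.73 FPKM in the knockout libraries, against 0.0616, 0.143, 0.165 and 0.211 FPKM in WT. It was near 0 in WT and highest in knockout 3, its log2 change was 2.67 ± 0.20 (SE, adjusted p = 7.38e-06) and 4.73 with a pseudocount of 0.1, and knockout 4 was among the lower knockout libraries. Its partner chains behaved otherwise: Col9a1 and Col9a3 were under the minimum and had their highest values, 1.73 and 1.39 FPKM, in knockout 4.

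The microfibril collagens were the class in which members differed in direction. Col6a1 and Col6a2 encode 2 of the 3 chains of the common collagen VI, which anchors cells in the interstitium. Col6a1 had 84.2, 94.8, 97.1 and 118 FPKM in the knockout libraries, against 55.5, 44.9, 52.4 and 53.4 FPKM in WT, a log2 change of 0.92 ± 0.11 (SE, adjusted p = 0.000108). Col6a2 had 72.6, 108, 106 and 126 FPKM in the knockout libraries, against 55.2, 41.2, 53.4 and 58.4 FPKM in WT, a log2 change of 0.96 ± 0.17 (SE, adjusted p = 0.000988). Both were above WT in every knockout library, with knockout 1 lowest and knockout 4 highest. Col6a3, the long chain that the assembled protein requires, had 10.7, 26.7, 25.6 and 46.4 FPKM in the knockout libraries, against 14.7, 9.15, 14.7 and 15.9 FPKM in WT. Knockout 1 lay among the WT libraries and the other knockout libraries above them, and the log2 change of 0.82 ± 0.37 (SE, adjusted p = 0.0788) was not called. Without knockout 1 it was 1.19 (adjusted p = 0.00333), and without knockout 4 it was 0.52 (adjusted p = 0.183). Col6a6, an alternative long chain, had 1.26, 1.28, 0.839 and 0.980 FPKM in the knockout libraries, against 2.64, 1.62, 1.87 and 1.71 FPKM in WT. It was the only collagen to fall among those tested, with every knockout library below every WT library and a log2 change of -0.50 ± 0.14 (SE, adjusted p = 0.0129), or -0.78 with a pseudocount of 0.1.

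Among the remaining collagens tested, Col18a1 and Col26a1 rose and Col15a1 was not called. Col18a1, the multiplexin whose end fragment is endostatin, had 9.32, 9.51, 11.6 and 18.8 FPKM in the knockout libraries, against 5.14, 4.57, 5.22 and 4.90 FPKM in WT, a log2 change of 1.11 ± 0.19 (SE, adjusted p = 0.000746). Its knockout libraries were all above WT, with knockout 4 highest. Col15a1, the multiplexin of capillary and muscle basement membranes, had 20.1, 99.3, 85.7 and 95.1 FPKM in the knockout libraries, against 53.5, 29.9, 49.5 and 52.5 FPKM in WT. Knockout 1 was the lowest of all 8 libraries and the other knockout libraries were the highest. Its log2 change was 0.49 ± 0.47 (SE, adjusted p = 0.387), and 1.03 without knockout 1 (adjusted p = 0.0022), while it was 0.28 without knockout 2, 0.30 without knockout 4 and 0.29 without WT 2. Col26a1, a collagen of connective tissue with a short helix, had 3.47, 7.21, 4.50 and 1.88 FPKM in the knockout libraries, against 1.03, 0.757, 1.76 and 1.59 FPKM in WT. It was lowest in knockout 4, still above the highest WT library, and its log2 change was 1.13 ± 0.29 (SE, adjusted p = 0.00804).

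The other 18 collagens had a mean under 1 FPKM, and several reached 1 FPKM only in knockout 4. Col2a1, the fibrillar collagen of cartilage, had 0.567, 0.0474, 0.0313 and 4.75 FPKM in the knockout libraries, against 0.0166, 0, 0 and 0.0163 FPKM in WT. Col11a1 and Col11a2 encode chains of collagen XI, which starts the fibrils of cartilage, and Col11a1 had 1.15, 0.445, 0.566 and 2.03 FPKM in the knockout libraries, against 0.0334, 0.0934, 0.0398 and 0.0871 FPKM in WT. Col11a2 had 0.639, 1.16, 0.548 and 2.97 FPKM in the knockout libraries, against 0.569, 0.420, 0.780 and 0.470 FPKM in WT. Knockout 4 was highest for all 3 genes, as it was for the cartilage and valve markers, whose part in these values was not tested. The highest values of Col9a1 were 1.73 FPKM in the knockout and 0.0213 FPKM in WT, those of Col9a3 1.39 FPKM in the knockout and 0.237 FPKM in WT and those of Col10a1 0.852 FPKM in the knockout and 0.0268 FPKM in WT. In each case the highest knockout value was that of knockout 4. Without a minimum, 5 of the 18 were called higher, where 30.3% of all 18740 genes were called higher, and these were Col7a1, Col11a1, Col22a1, Col23a1 and Col24a1.

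Col7a1, the collagen of the anchoring fibrils under epithelia, had 0.350, 0.527, 0.627 and 0.558 FPKM in the knockout libraries, against 0.184, 0.131, 0.149 and 0.120 FPKM in WT, without overlap. The highest values were 0.0908 FPKM in the knockout and 0.0222 FPKM in WT for Col24a1, a fibrillar chain, 0.211 FPKM in the knockout and 0.0712 FPKM in WT for Col22a1, a FACIT of tissue junctions, and 1.66 FPKM in the knockout and 0.566 FPKM in WT for Col23a1, a transmembrane collagen. The other transmembrane collagens reached 0.424 FPKM in the knockout and 0.668 FPKM in WT for Col13a1, 0.133 FPKM in the knockout and 0.0355 FPKM in WT for Col17a1 and 0.190 FPKM in the knockout and 0.205 FPKM in WT for Col25a1. The means of Col13a1 and Col25a1 were lower in the knockout, and the groups overlapped for both. The remaining FACIT chains reached 1.01 FPKM in the knockout and 0.756 FPKM in WT for Col20a1 and 0.0149 FPKM in the knockout and 0.0261 FPKM in WT for Col19a1. The alternative collagen VI chains reached 0.192 FPKM in the knockout and 0.0761 FPKM in WT for Col6a5 and 0.0106 FPKM in the knockout and 0.0203 FPKM in WT for Col6a4, and Col28a1, a collagen of peripheral nerve, reached 1.21 FPKM in the knockout and 0.799 FPKM in WT. Among the 18 collagens under the minimum, every knockout library was above WT for Col2a1, Col7a1, Col11a1, Col17a1, Col22a1, Col23a1 and Col24a1. This was so for 41.7% of the 11974 genes tested, a share that leaves out genes under the minimum.

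**Figure D3:**
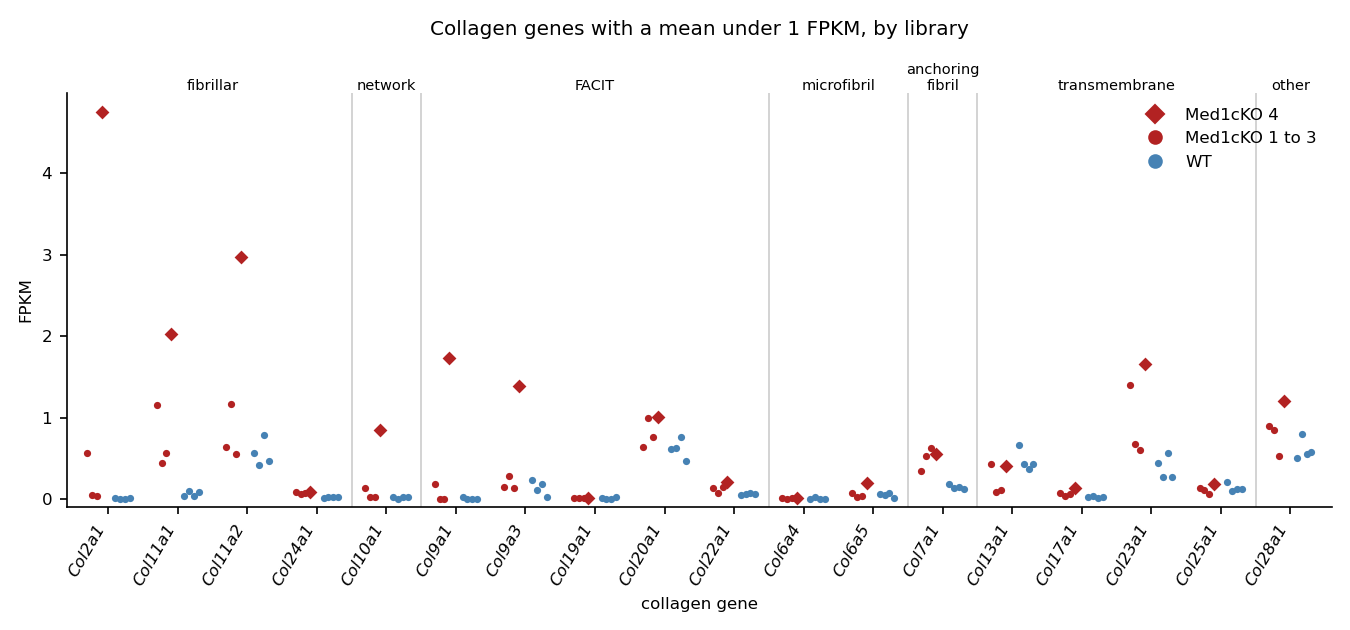
FPKM of the 18 collagens with a mean under 1 FPKM in each library, with knockout 4 drawn as a diamond. Knockout 4 is the highest library for Col2a1 (4.75 FPKM), Col11a2 (2.97), Col11a1 (2.03), Col9a1 (1.73) and Col9a3 (1.39).

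Summed over all 44 genes, collagen transcripts made up more of the total in the knockout and their mix differed. The sum was 1895, 1961, 2135 and 2867 FPKM in the knockout libraries, against 862, 729.7, 849 and 870.5 FPKM in WT. All knockout libraries were above all WT libraries, with means of 2215 ± 446 FPKM in the knockout and 828 ± 65.9 FPKM in WT (SD, n = 4 each), which is 0.450% of all FPKM in the knockout and 0.159% in WT. FPKM is a level per length, so these shares describe transcripts and not bases of RNA or protein. Fibrillar collagens held 44.2 ± 5.85% of the collagen FPKM in the knockout and 39.1 ± 1.38% in WT, and these groups overlapped. The network share was 6.48 ± 1.49% in the knockout and 0.777 ± 0.0859% in WT, and the FACIT share 2.31 ± 0.274% in the knockout and 1.39 ± 0.165% in WT, both without overlap. The microfibril share was 10.4 ± 1.2% in the knockout and 14.4 ± 0.746% in WT, without overlap, and the multiplexin share 3.91 ± 1.70% in the knockout and 6.14 ± 0.961% in WT, with overlap. For basement membrane collagens the share was 32.4 ± 2.81% in the knockout and 37.8 ± 3.18% in WT, where the highest knockout library (35.58%) fell just under the lowest WT library (35.64%). Without knockout 4 the sum averaged 1997 ± 124 FPKM (SD, n = 3) or 0.403% of all FPKM in the knockout, the fibrillar share 42.5 ± 5.82%, the basement membrane share 33.5 ± 2.14% and the microfibril share 10.5 ± 1.46%. These shares were described and not tested.

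**Figure D4:**
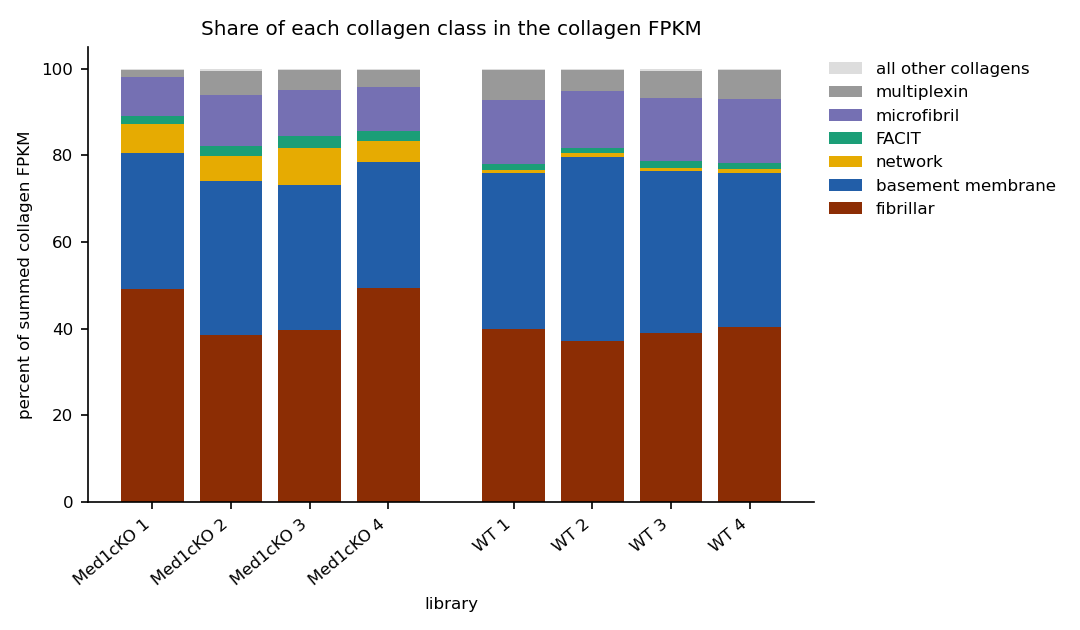
Share of the summed collagen FPKM held by each class in each library, in percent. The network share, dominated by Col8a1, is 4.98 to 8.45% in the 4 Med1cKO libraries and 0.670 to 0.875% in the 4 WT libraries.

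Ratios between chains, which do not depend on how a library is scaled, were compared for 12 pairs. Of these, 7 differed between the groups without overlap, each with an exact two-sided permutation p of 0.0286, the lowest possible with 70 ways to assign 4 and 4 libraries, and an adjusted p of 0.049 over the 12 pairs. The ratio of Col3a1 to Col1a1 was 1.94, 1.97, 1.86 and 2.09 in the knockout libraries, against 3.81, 4.25, 3.85 and 3.54 in WT, and was lower in every knockout library. The ratio of Col5a1 to Col5a2 was 0.395, 0.747, 0.522 and 0.624 in the knockout libraries, against 1.31, 1.18, 1.47 and 1.31 in WT. It lay under 1 in the knockout and over 1 in WT. The ratio of Col5a2 to Col3a1, neighbours on chromosome 1 that point towards each other, was 0.277, 0.208, 0.306 and 0.185 in the knockout libraries, against 0.0937, 0.0952, 0.0879 and 0.0967 in WT. The ratio of Col1a1 to Col4a1, interstitial against basement membrane collagen, was 0.614, 0.429, 0.451 and 0.654 in the knockout libraries, against 0.289, 0.212, 0.274 and 0.307 in WT. Both ratios were higher in each knockout library than in any WT library. The ratio of Col4a5 to Col4a1 was 0.234, 0.199, 0.205 and 0.151 in the knockout libraries, against 0.132, 0.136, 0.148 and 0.119 in WT, that of Col8a1 to Col8a2 was 70.7, 47.0, 52.6 and 76.4 in the knockout libraries, against 32.0, 43.7, 27.6 and 33.0 in WT, and that of Col12a1 to Col14a1 was 0.308, 0.720, 0.794 and 0.866 in the knockout libraries, against 0.0335, 0.0304, 0.0519 and 0.0408 in WT. Knockout 4 came close to WT 3 for Col4a5 to Col4a1, and the groups were far apart for Col12a1 to Col14a1. Col8a2 and Col12a1 passed the minimum only through the knockout, so the tests of their ratios follow in part from the filter.

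The other 5 pairs had ratios that overlapped between the groups. The ratio of Col1a1 to Col1a2 averaged 0.792 ± 0.10 in the knockout and 0.732 ± 0.0405 in WT (SD, n = 4 each, exact permutation p = 0.371), and that of Col4a1 to Col4a2 averaged 1.36 ± 0.0566 in the knockout and 1.37 ± 0.0355 in WT (exact permutation p = 0.743). Unlike these 2 ratios, that of the collagen V chains Col5a1 and Col5a2 differed without overlap. The ratio of Col6a1 to Col6a2 averaged 0.972 ± 0.128 in the knockout and 0.998 ± 0.0723 in WT. That of Col6a3 to Col6a1 averaged 0.266 ± 0.109 in the knockout and 0.262 ± 0.0406 in WT, and that of Col15a1 to Col18a1 6.27 ± 3.52 in the knockout and 9.29 ± 1.92 in WT. A p that misses the threshold does not show that these ratios were equal. With 1 library left out, the 35 assignments gave 5 to 7 pairs an unadjusted p of 0.0286, and the adjusted count was 7 without knockout 2 or knockout 3 and 0 without any one of knockout 1, knockout 4, WT 1, WT 2, WT 3 and WT 4, where the smallest adjusted p was 0.0571 or 0.0686.

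**Figure D5:**
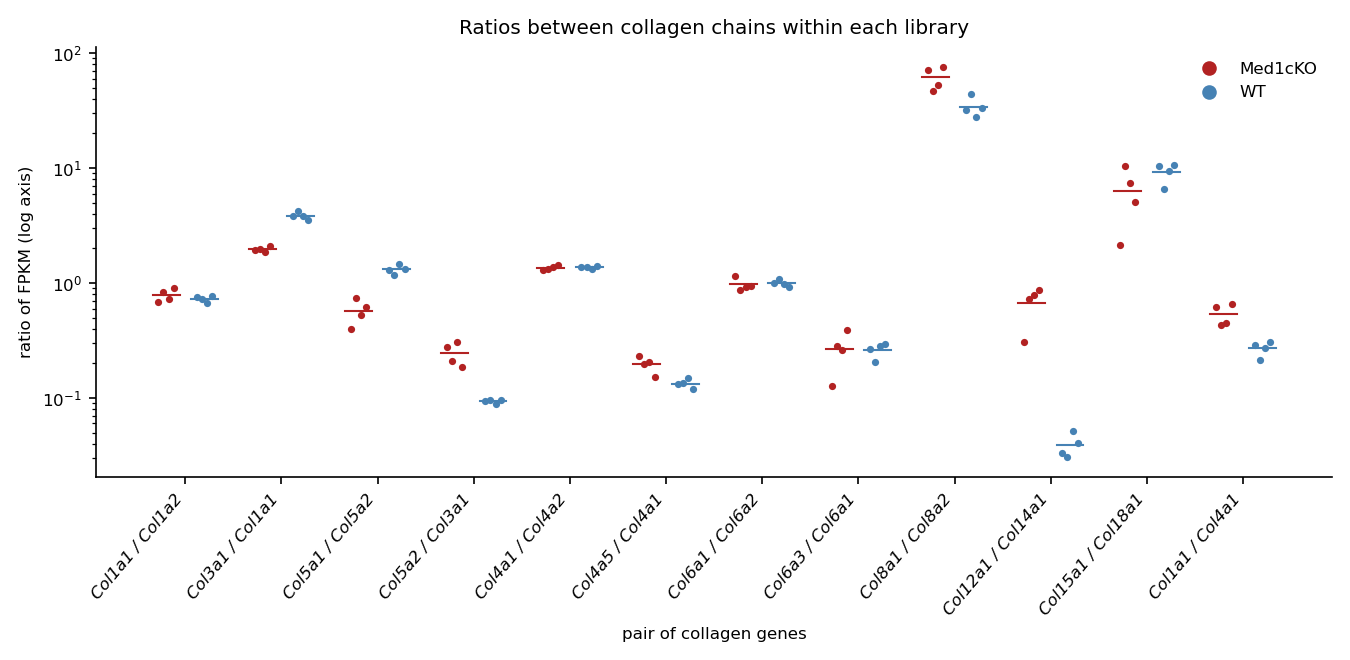
FPKM ratio of 12 pairs of collagen genes in each Med1cKO and WT library, on a log axis, with a bar at each group's mean. The mean ratio is 0.792 in the knockout and 0.732 in WT for Col1a1 to Col1a2 and 1.36 in the knockout and 1.37 in WT for Col4a1 to Col4a2, with overlap, while Col12a1 to Col14a1 lies at 0.308 to 0.866 in the knockout and 0.0304 to 0.0519 in WT.

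Many genes that make or process collagen were also higher in the knockout, with exceptions in each group. Of 18 tested genes for hydroxylation, folding and export of collagen chains, 16 were higher and 1 lower, beside 44.9% and 16.4% of all genes, and after rescaling 13 were higher, without P4ha2, Crtap and Serpinh1, which also lost their calls without knockout 4 (adjusted p = 0.0656, 0.0744 and 0.0943). The 3 largest changes were those of Leprel1, a prolyl 3-hydroxylase (1.44 ± 0.19 (SE, adjusted p = 0.000187)), Leprel2, a related protein (1.09 ± 0.11 (SE, adjusted p = 3.31e-05)), and Fkbp10, a folding helper of the endoplasmic reticulum (1.06 ± 0.20 (SE, adjusted p = 0.00121)). The gene called lower was Glt25d2, a collagen galactosyltransferase, at -0.63 ± 0.10 (SE, adjusted p = 0.000592). Of 5 propeptide-cleaving genes tested, 4 were higher, with Adamts2, which removes the amino-terminal propeptide, at 1.80 ± 0.14 (SE, adjusted p = 9.56e-06), Pcolce, which speeds removal of the carboxy-terminal one, at 1.40 ± 0.19 (SE, adjusted p = 0.00019) and its relative Pcolce2 at 1.25 ± 0.08 (SE, adjusted p = 3.95e-06). Of 13 genes of cross-linking and fibril regulation, 11 were higher, or 10 after rescaling, without Dcn, beside 44.9% and 26.9% of all genes. Dpt, not called with all libraries, was lower without knockout 4 (log2 change -0.38, limma adjusted p = 0.0356). Lox, the lysyl oxidase that starts cross-links, had 48.3, 34.5, 56.9 and 67.1 FPKM in the knockout libraries, against 1.06, 1.72, 2.22 and 1.87 FPKM in WT. All knockout libraries were far above WT, with a log2 change of 4.25 ± 0.20 (SE, adjusted p = 8.1e-07), and Postn, which helps Lox to be activated, had 4.06 ± 0.18 (SE, adjusted p = 6.29e-07) and Fmod, a small proteoglycan on fibrils, 3.0 ± 0.41 (SE, adjusted p = 0.000221).

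Of 7 receptors tested, 4 were higher, not far from the 44.9% of all genes, namely Mrc2, which takes up collagen for breakdown (1.70 ± 0.14 (SE, adjusted p = 1.01e-05)), Itga11, an integrin chain of fibroblasts (1.24 ± 0.14 (SE, adjusted p = 6.29e-05)), Ddr1, a receptor kinase (1.10 ± 0.13 (SE, adjusted p = 8.04e-05)), and Itgb1, the common integrin chain (1.09 ± 0.10 (SE, adjusted p = 2.41e-05)). Of 6 genes of collagen degradation tested, 5 were higher, and 3 of these 5 are inhibitors of metalloproteases (Timp1, Timp2 and Timp3). The largest changes were those of Timp1 (3.88 ± 0.52 (SE, adjusted p = 0.000191)), Timp2 (2.05 ± 0.12 (SE, adjusted p = 2.25e-06)) and Ctsk, a lysosomal protease that cuts collagen (1.30 ± 0.16 (SE, adjusted p = 0.000118)). Timp1 was highest in knockout 4, at 166 FPKM against 22.9 to 37.7 in the other knockout libraries, and without knockout 4 its log2 change was 3.29 (adjusted p = 2.03e-05). The log2 changes in these sentences are from limma with Benjamini-Hochberg adjustment over all genes.

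Marker lists of cell types did not all move in the same direction, and their part in the collagen changes was not tested. Their counts stand beside 44.9% of all genes called higher and 16.4% lower. Fibroblast markers summed to 674 to 1164 FPKM in the knockout and 555 to 796 FPKM in WT, with 6 of 10 higher and 2 lower, and activated fibroblast markers to 678 to 968 FPKM in the knockout and 194 to 349 FPKM in WT, with 6 of 8 higher and none lower. After rescaling, 5 fibroblast markers were higher and 2 lower. Of the activated fibroblast markers, 6 were then higher and 1, Fap, lower, beside 26.9% of all genes higher. Endothelial markers summed to 307 to 392 FPKM in the knockout and 308 to 384 FPKM in WT, with 1 of 8 higher and 2 lower, or 0 higher and 4 lower after rescaling. Smooth muscle markers summed to 683 to 975 FPKM in the knockout and 241 to 393 FPKM in WT, with 2 of 6 higher and 1 lower, and Cnn1 among them had 404, 292, 359 and 268 FPKM in the knockout libraries, against 1.31, 1.22, 1.48 and 1.11 FPKM in WT. Without Cnn1, a split made after its values were seen, the other 5 summed to 329 to 707 FPKM in the knockout and 239.5 to 391 FPKM in WT, with overlap, and of these Tagln was higher, Smtn lower and Acta2, Myh11 and Mylk not called. Pericyte markers summed to 148 to 182 FPKM in the knockout and 236 to 273 FPKM in WT, with 3 of 7 higher and 4 lower, or 1 higher and 4 lower after rescaling. Without knockout 4, the fibroblast marker Pdgfra and the endothelial Pecam1 lost their higher calls (limma adjusted p = 0.0587 and 0.0982). The endothelial Tie1 and the pericyte Kcnj8 lost their lower calls (limma adjusted p = 0.0962 and 0.0987). Macrophage markers summed to 131 to 199 FPKM in the knockout and 180 to 255 FPKM in WT, with 0 of 6 called in limma, 1 of 6 at an unadjusted p under 0.05 and 3 of 6 lower after rescaling. Ventricular cardiomyocyte markers were lower for 7 of 7, at the sums already given. Postn counts both as an activated fibroblast marker and among the genes of fibril regulation, and Acta2 both as an activated fibroblast and a smooth muscle marker.

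Among the remaining lists, most set knockout 4 apart. Their counts also stand beside 44.9% of all genes called higher and 16.4% lower, or 26.9% higher after rescaling. Atrial markers summed to 5042 to 7935 FPKM in the knockout and 202 to 392 FPKM in WT, with 4 of 6 higher and 1 lower. Nppa made up most of this sum, at 7296, 7829, 5018 and 5760 FPKM in the knockout libraries and 188 to 372 FPKM in WT. It was highest in knockout 2, while Myl7, Myl4, Sln and Bmp10 were highest in knockout 4. Sln and Bmp10 were listed at 0 in all 4 WT libraries. Epicardial markers summed to 59.0 FPKM in knockout 4, 2.96 to 10.2 FPKM in the other knockout libraries and 1.86 to 9.90 FPKM in WT, with 0 of 5 called in limma and 1 of 5 at an unadjusted p under 0.05. Endocardial markers summed to 85.3 FPKM in knockout 4, 21.4 to 42.5 in the other knockout libraries and 22.4 to 26.7 in WT. Of these 4 markers 2 were higher, or 1 after rescaling. Without knockout 4, Nfatc1 was no longer called higher (limma adjusted p = 0.0775) and Cytl1 was lower (log2 change -1.30, adjusted p = 0.00213). Schwann cell markers summed to 18.5 FPKM in knockout 4, 3.75 to 6.07 in the other knockout libraries and 2.93 to 4.06 in WT, with 0 of 2 tested called in limma and 0 at an unadjusted p under 0.05. Of the cartilage and valve markers 1 was tested, Sox9, and it was higher. Knockout 4 was the highest knockout library for 18 of the 26 collagens tested, and knockout 1 the lowest for 12. Without knockout 4, 22 collagens were called higher and 1 lower, and without knockout 1, 24 were called higher and 1 lower, the 2 additional ones being Col6a3 and Col15a1.

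In the authors' deposited table of Cuffdiff results, 31 of the 44 collagens were tested, 27 were significant and higher in the knockout and 1, Col6a6, was significant and lower, where 23.1% of all genes tested there were significant and higher. The authors' deposited table marks Col6a3 (log2 fold change 0.72, q = 0.000211) and Col15a1 (log2 fold change 0.42, q = 0.0173) as significant, which limma did not call. Pooled values in the authors' deposited table were a median of 1.06 times the mean of the library values in the knockout and 1.29 times in WT, so their fold changes are smaller, with 1.84 for Col1a1, 0.85 for Col4a1 and 4.18 for Col8a1 on the log2 scale. For low collagens, to which no pseudocount was added there, the authors' deposited table gives larger values, 5.06 for Col12a1 and 5.21 for Col9a2.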

How the data were processed

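Ventricles were frozen, total RNA was extracted with Trizol, and stranded poly(A) libraries were prepared, per the labels' protocols. The submitters' processing notes name TopHat 1.0.0, Cufflinks, Cuffdiff and the mm10 build. Sources used here do not give the versions of Cufflinks and Cuffdiff, the annotation or the use of strand in counting. Deposited FPKM values cover each gene in each library, with 0.001 written where the estimate was 0 (set to 0 here) and a word in place of a number in 313 rows, which were dropped. The authors' table of comparisons, also deposited, gives pooled FPKM, log2 fold changes, test scores, p-values and q-values. The test scores were not used.

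Titles gave the groups and replicate numbers. The test covered the 11974 genes whose mean over the 8 libraries was 1 FPKM or more. They were tested with limma 3.58.1 (R 4.3.3, intensity trend) on log2(FPKM + 1), two-sided, with Benjamini-Hochberg adjustment, and fold changes on this scale understate those of low genes. Fold values called "-fold" are ratios of mean FPKM. Chain ratios were tested by exact permutation, adjusted over the 12 pairs. The procedure was also tested on simulated data. FPKM divides by length and by the library's total, so a value falls when other genes take more of the total.

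Members, classes, gene lists, tests and the rule for named genes were chosen with earlier results of these data known. The rule names every collagen, with every library's FPKM for members of the 5 main classes that passed the minimum and for others with a log2 change of at least 1, and the 3 called genes with the largest change in each pathway list. Other genes were named after their values were seen. Alternatives were a pseudocount of 0.1, quantile normalization, median-of-ratios rescaling, a minimum of 5 FPKM or none, limma with robust variances or without trend, a replicate block, and leaving out any one library. Gly-X-Y runs were read from GENCODE M21 transcripts (GRCm38, the assembly of mm10) as glycine codons 3 codons apart, without a break, and start windows from RefSeq (GRCm38.p6).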

Additional observations from a re-analysis of the deposited data

Results flagged for a closer look

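In 4 of 52 groups of 4 libraries looked at (26 collagens in 2 genotypes), 1 library lay so far from the others that its gap took more of the group's range than Dixon's 95% limit allows. Chance alone flags about 1 in 20 such groups. Col3a1 had 604.2 FPKM in knockout 4 (gap 0.844 of the range) and Col4a6 had 4.43 FPKM in knockout 4 (gap 0.927). In WT, Col4a2 had 123.9 FPKM in WT 3 (gap 0.886), within 5 FPKM of the other WT libraries, and Col5a1 had 16.7 FPKM in WT 2 (gap 0.859). Knockout 4 is the library with the highest cartilage, epicardial, endocardial and Schwann cell marker sums, and their part in its collagen values was not tested.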

How the results depend on the processing

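The collagen count was 22 higher in each alternative that kept the 26 genes, except without knockout 1 (24). It was 27 of all 44 with no minimum, beside 30.3% of all genes called higher. With a minimum of 5 FPKM it was 15, out of fewer collagens than the 26. The count of lower collagens was then 0, because Col6a6 does not reach that minimum. Over all genes, rescaling gave 3218 higher and 3203 lower and quantile normalization 3437 higher and 3067 lower, against 5371 higher and 1964 lower as reported, and the collagen calls were 22 and 1 under both. The log2 change of Col5a3, never called, was -0.18 after rescaling, -0.17 after quantile normalization and between -0.0056 (without WT 2) and 0.16 (without WT 1) with 1 library left out. Leaving out 1 library moved the number of chain ratios with an adjusted p under 0.05 between 0 and 7. In these leave-outs, 5 to 7 pairs had an unadjusted exact permutation p of 0.0286, and the adjusted p passed the threshold only where 7 pairs had it. With 1 library left out, log2 ratio differences crossed 0 for 3 pairs that had not passed the test, Col4a1 to Col4a2 (-0.039 to 0.0052), Col6a1 to Col6a2 (-0.13 to 0.0027) and Col6a3 to Col6a1 (-0.29 to 0.25). Replicate numbers were shared between the groups, but libraries with the same number correlated at 0.14, 0.0325, -0.0409 and -0.0138 in their deviations, so they share only a number. With the replicate block, 22 collagens were higher and 1 lower, 5089 genes were higher and 1867 lower, and 0 chain ratios differed, since its 16 sign flips cannot give a p under 0.125. Fragment counts are unknown, so the counting error of collagens near 1 FPKM cannot be given.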
